A study of Mus musculus with 15 samples.

Results

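The genes described here are 9 members of the IL-31 receptor and IL-6 cytokine family, measured by RNA sequencing of whole mouse lung in a model of allergic asthma. They are the receptor genes Il31ra, Osmr, Il6ra, Il6st and Lifr and the cytokine genes Osm, Lif, Il6 and Il11. They were selected by their symbols from the 24054 genes counted, and Il31ra was included also because its level fell under the antibody, so that fall is given as a description with no test. The other comparisons of Il31ra share libraries with it and are described in the same way. Lungs came from 15 wild-type female Balb mice, 5 in each of 3 groups. The anti-IL-4Ra group was sensitised to and challenged with ovalbumin (OVA, the allergen) and given 30 mg/kg of an antibody against mouse IL-4Ra, the receptor subunit that binds IL-4 and serves in the receptors of both IL-4 and IL-13. The OVA group had the same sensitisation and challenge with an isotype control antibody. The saline group was sham-sensitised with saline and given the isotype control antibody. The labels state neither ages, nor dose timing, nor the day of tissue collection.

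Cytokines of the IL-6 family act through receptors that share the signalling chain gp130, encoded by Il6st. IL-6 binds IL-6R (Il6ra) and IL-11 binds its own alpha receptor before either engages gp130. LIF signals through gp130 paired with the LIF receptor (Lifr), and mouse oncostatin M through gp130 paired with the oncostatin M receptor (Osmr). IL-31, a cytokine of T helper 2 cells known for itch, uses Osmr paired with IL-31RA, a gp130-like chain, in place of gp130 itself. The receptors signal through JAK kinases to STAT3 and other STAT factors, whereas IL-4 and IL-13 signal mainly through STAT6. In mouse macrophages, IL-4 and IL-13 are known to raise Il31ra.

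Several members lie side by side in the genome. In the RefSeq annotation of assembly GRCm38.p6, no other protein-coding gene starts between Il31ra and Il6st on chromosome 13, between Osm and Lif on chromosome 11, or between Osmr and Lifr on chromosome 15. The RefSeq promoter table, which gives 250 bases before and 50 bases after a gene's start, held 8 of the 9 members. The windows of both chains of the IL-31 receptor and of the chromosomal neighbour of Il31ra are shown, 5′ to 3′ on each gene's strand, because the levels of these 3 genes took different courses. Il31ra lies at chr13:112580613-112580912 on the minus strand, Osmr at chr15:6874264-6874563 on the minus strand and Il6st at chr13:112463820-112464119 on the plus strand (GRCm38.p6). Capitals mark matches to the motif TTCNNNGAA, a core bound by several STAT factors, or to TTCNNNNGAA, the spacing preferred by STAT6; both motifs read the same on either strand.
Il31ra: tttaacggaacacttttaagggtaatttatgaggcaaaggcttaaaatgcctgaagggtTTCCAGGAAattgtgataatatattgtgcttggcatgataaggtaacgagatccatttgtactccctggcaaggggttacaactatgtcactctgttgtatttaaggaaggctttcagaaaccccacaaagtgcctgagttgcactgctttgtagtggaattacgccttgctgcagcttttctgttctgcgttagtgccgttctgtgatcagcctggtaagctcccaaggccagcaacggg
Osmr: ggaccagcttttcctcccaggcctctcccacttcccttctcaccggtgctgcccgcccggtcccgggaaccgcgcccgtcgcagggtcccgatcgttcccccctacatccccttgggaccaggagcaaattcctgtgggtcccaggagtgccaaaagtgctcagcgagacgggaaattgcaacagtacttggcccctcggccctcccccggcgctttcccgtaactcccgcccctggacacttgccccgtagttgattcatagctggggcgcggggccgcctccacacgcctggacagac
Il6st: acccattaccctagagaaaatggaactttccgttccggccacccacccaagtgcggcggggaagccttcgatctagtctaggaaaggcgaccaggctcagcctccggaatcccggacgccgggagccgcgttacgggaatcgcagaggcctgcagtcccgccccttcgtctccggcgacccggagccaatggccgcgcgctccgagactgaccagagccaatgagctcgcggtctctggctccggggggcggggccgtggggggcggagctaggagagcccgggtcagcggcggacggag
The Il31ra window held 1 copy of TTCNNNGAA, 191 bases before the gene's start, and it was the only one of the 8 members with this motif. The motif occurred in 8.30% of all 32851 promoter windows of this length. TTCNNNNGAA occurred in 6.95% of all windows and in 1 member, Il11, in the window of 1 of its annotated starts. The Il31ra window had a GC content of 44.7%, against 66.0% for Osmr, 68.3% for Il6st and a median of 52.7% over all windows. A match is a stretch of letters and was not tested as a binding site.

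Library totals ran from 12317805 to 16914475 expected counts in anti-IL-4Ra lungs, 10042825 to 14706131 in OVA lungs and 16774285 to 27570666 in saline lungs. Levels are given as CPM, counts scaled to a common library size after correction by TMM factors, which allow for differences in RNA composition. The share of counts on Rn45s, the ribosomal RNA precursor, differed between libraries. It was 1.65 to 12.4% in anti-IL-4Ra lungs and 4.31 to 12.4% in OVA lungs, against 1.19 to 2.88% in saline lungs, so each OVA library lay above each saline library. Adding this share to the fit lowered the calls between anti-IL-4Ra and saline lungs to 373 (2.35% of genes tested), against 4236 without it. Between OVA and saline lungs it lowered them to 752 (4.73%), against 5898 without it. As the share differed between OVA-exposed and saline lungs, share and exposure cannot be told apart in these fits. Why calls were lost was not tested. Values from these fits are given beside the groups of genes below. Markers of lung tissue (Sftpc of alveolar type 2 cells, Scgb1a1 of club cells, Ager of alveolar type 1 cells, Pecam1 of endothelium and Foxj1 of ciliated cells) were counted, and their summed level was 8154 to 18383 CPM in anti-IL-4Ra lungs, 6132 to 14597 CPM in OVA lungs and 16534 to 32204 CPM in saline lungs.

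Il31ra was about 7-fold higher in OVA lungs than in saline lungs, and its libraries lay within the saline range in anti-IL-4Ra lungs. The receptor genes Il6st and Lifr were lower, and the cytokine genes Osm and Il11 higher, in both OVA-exposed groups than in saline lungs. Il6ra was lower in OVA than in saline lungs. Leaving Il31ra aside, 0 of the 7 members tested were called by edgeR between anti-IL-4Ra and OVA lungs, where 0.302% of all genes were. The plot of the members by library shows each value.

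**Figure D1:**
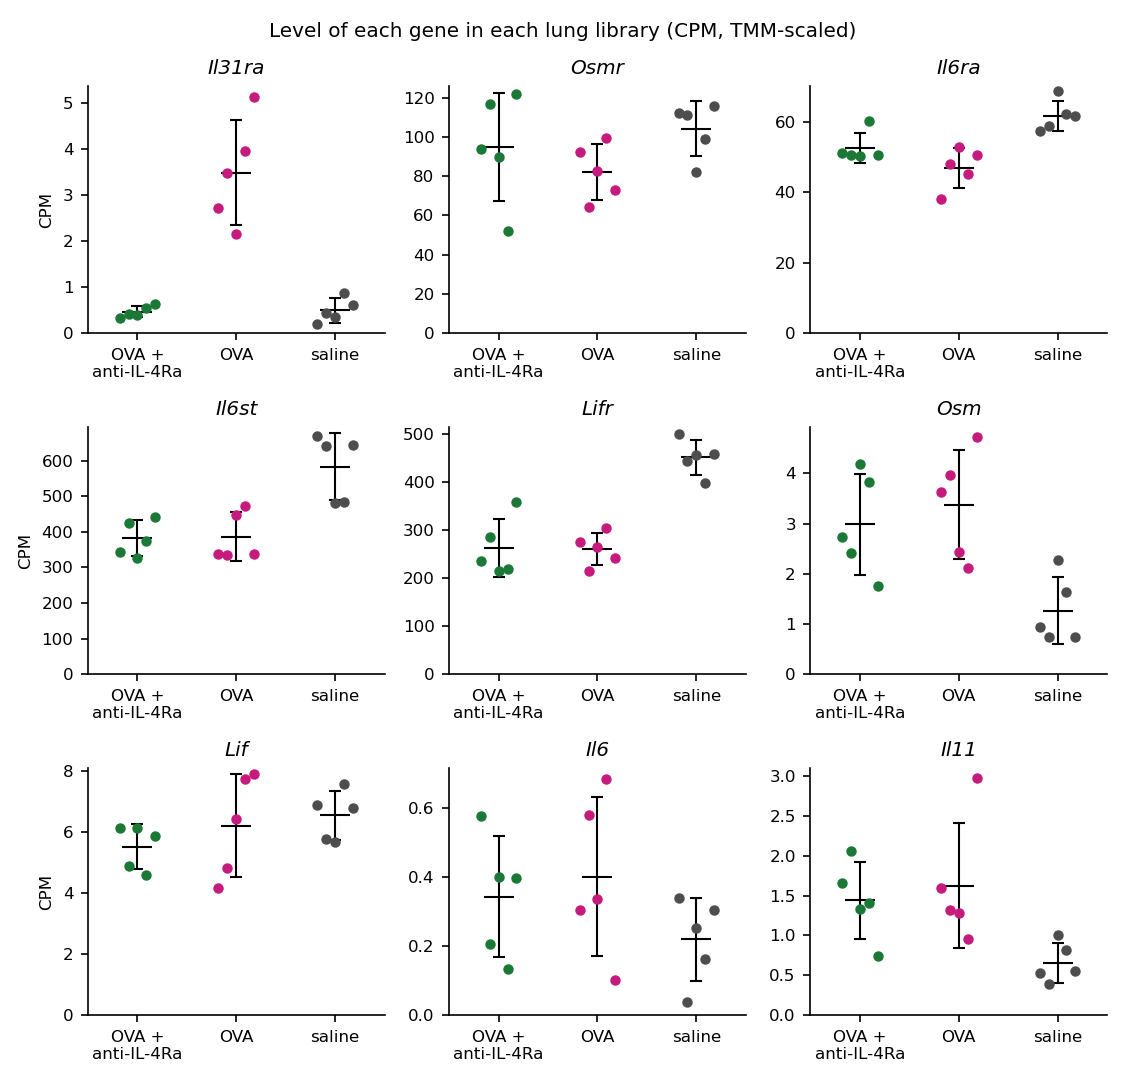
CPM (y axis, linear, from 0) of each of the 9 genes in each of the 15 lung libraries, by group; points are libraries, bars the mean ± SD of 5. Il31ra is high in the OVA group alone, Il6st and Lifr are highest in the saline group, and Osm and Il11 have their lowest group means there.

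Il31ra, the chain specific to the IL-31 receptor, was rare in each group. It had 36, 42, 32, 58 and 50 counts in the 5 OVA libraries, against 5, 11, 7, 16 and 10 counts in the saline libraries, although the saline libraries were deeper. Scaled for depth, OVA libraries held 2.73, 3.47, 2.16, 3.97 and 5.13 CPM, against 0.188, 0.426, 0.353, 0.871 and 0.611 CPM in saline libraries. The 2 groups did not overlap, which was so in this direction for 12.1% of all genes tested. OVA over saline gave a log2 fold change of 2.84 ± 0.35 (± SE, n = 5 each), a 7.18-fold higher level. With the Rn45s share as a covariate it was 2.95 ± 0.54, and over the 15 fits that each left out 1 library it ran from 2.62 to 3.15. OVA replicate 5, with the highest Rn45s share, also had the highest Il31ra level, whereas anti-IL-4Ra replicate 5, with that group's lowest share, had its highest level. Il31ra passed the filter on low counts through the OVA libraries alone: 5 of 5 of them reached the cutoff of 0.667 CPM, against 0 of 5 anti-IL-4Ra and 1 of 5 saline libraries.

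In anti-IL-4Ra lungs Il31ra had 4, 6, 6, 8 and 11 counts, or 0.330, 0.413, 0.399, 0.538 and 0.625 CPM. The highest of these libraries lay below the lowest OVA library, which was so for 0.660% of all genes tested. As the gene was included for its fall, this share gives no test of it. The mean was 0.461 ± 0.118 CPM in anti-IL-4Ra lungs and 3.49 ± 1.15 CPM in OVA lungs (SD, n = 5 each), a log2 fold change of -2.88 ± 0.36 (SE) and a 7.34-fold lower level, which is the fall that led to the gene's inclusion. Against the saline mean of 0.490 ± 0.262 CPM, the anti-IL-4Ra group had a log2 fold change of -0.03 ± 0.40, and the libraries of the 2 groups were interleaved. At 4 to 16 counts per library in these groups a moderate difference between them was not detectable at this depth. A processed pseudogene, Gm3226, is annotated within Il31ra on the same strand in GENCODE vM21, and all Il31ra counts were whole numbers in the 15 libraries.

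Osmr, the signalling chain that IL-31RA and oncostatin M receptors share, did not take the course of Il31ra. It had 93.8, 117, 89.9, 52.3 and 122 CPM in anti-IL-4Ra libraries, 92.5, 64.2, 82.9, 99.5 and 72.9 CPM in OVA libraries and 112, 112, 82.1, 99.1 and 116 CPM in saline libraries. All 3 groups overlapped, and the anti-IL-4Ra group was the widest. For Osmr the log2 fold change was 0.20 ± 0.19 for anti-IL-4Ra over OVA (edgeR adjusted p = 1.00), -0.34 ± 0.19 for OVA over saline (0.18) and -0.13 ± 0.19 for anti-IL-4Ra over saline (0.63). Without anti-IL-4Ra replicate 4, which had the lowest Osmr level of all libraries and enters the shared estimate of spread, the OVA-over-saline change was -0.38 ± 0.14 and passed the threshold (edgeR adjusted p = 0.041). With the Rn45s share as a covariate its sign turned, at 0.16 ± 0.21 (edgeR adjusted p = 0.66).

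The levels of the 2 chains can be set against each other only per length. Divided by the length of all annotated exons (GENCODE vM21, which may differ from the annotation used for counting), the Il31ra level was 9.39 ± 3.92% of the Osmr level in OVA libraries and 1.02 ± 0.556% in saline libraries (SD, n = 5 each). Each OVA library (5.56 to 15.02%) lay above each saline library (0.357 to 1.88%). In anti-IL-4Ra libraries the ratio was 1.15 ± 0.603%, with a range of 0.752 to 2.20% that overlapped the saline range.

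Il31, the ligand of this receptor, is not one of the 9 genes, but its few counts were all in OVA libraries. It had 2, 3, 1, 1 and 0 counts in the OVA libraries, 0 counts in each anti-IL-4Ra library and 0 counts in each saline library. A group with 0 counts was set to a limit of 3 counts. Against that limit, the 7 counts of the OVA group made its level 2.68-fold higher than that of the anti-IL-4Ra group. Against the limit of the saline group the OVA level was 3.87-fold higher. These ratios take the 7 counts as exact and leave out the spread between mice, so they are not lower bounds. The exact two-sided permutation p was 0.048 for OVA against anti-IL-4Ra and for OVA against saline (n = 5 each). After adjustment over the 5 exact tests on single genes it was 0.12 for both, so neither passed the correction. Il31 was too rare for the filter on low counts; in an edgeR fit with no filter, its adjusted p was 0.025 for OVA against saline and 0.57 for anti-IL-4Ra against OVA. On the opposite strand it overlaps Lrrc43, which had 46 to 193 counts per library in anti-IL-4Ra lungs, 102 to 153 in OVA lungs and 51 to 241 in saline lungs. The libraries kept strand, but the labels do not say whether counting used it.

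The receptor genes Il6ra, Il6st and Lifr were lower in OVA than in saline lungs. Of the 7 members other than Il31ra that passed the filter, 2 were called higher (Osm and Il11) and 3 lower (Il6ra, Il6st and Lifr), in a comparison in which 37.1% of all 15905 genes tested were called, 19.3% higher and 17.8% lower. The median log2 fold change of the 7 was -0.34, against 0.02 over all genes tested. By edgeR 0 of the 7 were called with the Rn45s share as a covariate, where 4.73% of all genes were. Of the 7, 2 had an unadjusted edgeR p under 0.05 in that fit. The plot of fitted fold changes sets the 3 comparisons side by side. The comparisons of anti-IL-4Ra with saline and of OVA with saline share the saline libraries, so they are not independent of each other.

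**Figure D2:**
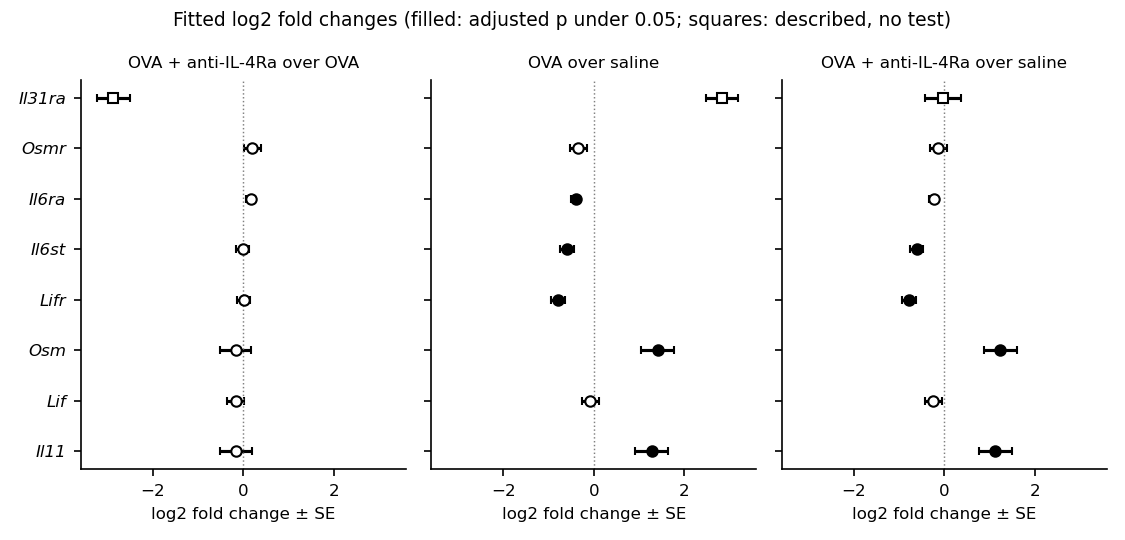
Log2 fold change with its SE (x axis) for the 8 genes that passed the filter (y axis), for anti-IL-4Ra over OVA, OVA over saline and anti-IL-4Ra over saline; filled points have an edgeR adjusted p under 0.05 and squares mark Il31ra, described with no test. Il31ra lies at -2.88, 2.84 and -0.03, while the other genes lie between -0.17 and 0.20 in the comparison of anti-IL-4Ra with OVA.

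Il6st, the gene of the shared chain gp130, was the most abundant member per exon length in each group. It had 342, 425, 327, 376 and 442 CPM in anti-IL-4Ra libraries and 337, 335, 448, 474 and 337 CPM in OVA libraries, against 669, 643, 481, 483 and 644 CPM in saline libraries. Each library of either OVA-exposed group lay below each saline library, which was so for 10.3% of all genes tested between anti-IL-4Ra and saline and for 14.5% between OVA and saline. Fitted log2 fold changes were -0.60 ± 0.15 for OVA over saline (edgeR adjusted p = 0.0059) and -0.61 ± 0.15 for anti-IL-4Ra over saline (edgeR adjusted p = 0.0081). Anti-IL-4Ra over OVA gave -0.01 ± 0.15 (edgeR adjusted p = 1.00). Il31ra and Il6st, neighbours on chromosome 13, changed in opposite directions between OVA and saline lungs.

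Lifr, the LIF receptor chain, was also lower in both OVA-exposed groups. It had 235, 285, 215, 219 and 358 CPM in anti-IL-4Ra libraries and 275, 215, 266, 305 and 242 CPM in OVA libraries, against 500, 444, 457, 398 and 458 CPM in saline libraries. No library of an OVA-exposed group reached the saline range, as for 10.3% of all genes tested between anti-IL-4Ra and saline and 14.5% between OVA and saline. For Lifr the log2 fold change was -0.79 ± 0.15 for OVA over saline (edgeR adjusted p = 0.00087), -0.78 ± 0.15 for anti-IL-4Ra over saline (edgeR adjusted p = 0.0017) and 0.01 ± 0.14 for anti-IL-4Ra over OVA (edgeR adjusted p = 1.00). Its expected counts were not whole in 15 of 15 libraries, so part of its reads was shared with other features by the counting tool.

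Il6ra, the IL-6 binding chain, changed least of the receptors called. It had 51.1, 50.5, 50.2, 60.1 and 50.7 CPM in anti-IL-4Ra libraries, 38.1, 48.0, 52.8, 45.1 and 50.5 CPM in OVA libraries and 57.3, 58.7, 68.6, 62.1 and 61.6 CPM in saline libraries. OVA and saline libraries did not overlap, which was so in this direction for 14.5% of all genes tested. The log2 fold change of OVA over saline was -0.40 ± 0.10 (edgeR adjusted p = 0.0063). In anti-IL-4Ra lungs 4 libraries lay within 1 CPM of each other and replicate 4 lay above them, inside the saline range. The change against saline was -0.23 ± 0.10 there (edgeR adjusted p = 0.095), and -0.31 ± 0.10 without replicate 4 (edgeR adjusted p = 0.036). Anti-IL-4Ra over OVA was 0.16 ± 0.10 (edgeR adjusted p = 1.00). An antisense gene, Gm42809, is annotated over Il6ra in GENCODE vM21.

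Most markers of endothelium were also lower in both OVA-exposed groups than in saline lungs. Of 10 endothelial markers 9 were lower in anti-IL-4Ra than in saline lungs, where 12.7% of all genes were lower, and 9 were lower in OVA than in saline lungs, where 17.8% were. With the Rn45s share as a covariate 0 were called by edgeR between anti-IL-4Ra and saline lungs, where 2.35% of all genes were. Of the endothelial markers 8 had an unadjusted edgeR p under 0.05 there. Between OVA and saline lungs, where 4.73% of all genes were called, 1 of these markers was, Kdr. Their summed level was 1598 to 3715 CPM in anti-IL-4Ra lungs and 1670 to 3218 CPM in OVA lungs, against 4157 to 5582 CPM in saline lungs, and none of the markers was at 0 in all libraries. The fall was not particular to endothelium. In OVA against saline lungs 3 of 7 epithelial markers and 4 of 5 markers of lung tissue, Pecam1 among these, were lower. Of 9 fibroblast markers 2 were lower and 3 higher. With the Rn45s share as a covariate 0 genes of these 3 lists were called by edgeR, where 4.73% of all genes were. In whole lung, fewer cells of a type and less RNA per cell cannot be told apart, and the part of any of these cells in the lower receptor levels was not tested. The Rn45s share was higher on average in both OVA-exposed groups than in saline lungs. With it as a covariate, the OVA-over-saline change was -0.33 ± 0.19 for Il6st (edgeR adjusted p = 0.28), -0.41 ± 0.15 for Lifr (edgeR adjusted p = 0.11) and -0.48 ± 0.14 for Il6ra (edgeR adjusted p = 0.062). For anti-IL-4Ra over saline it was -0.37 ± 0.18 for Il6st (edgeR adjusted p = 0.27) and -0.47 ± 0.14 for Lifr (edgeR adjusted p = 0.10). Within the anti-IL-4Ra group, replicates 2 and 5 had the lowest Rn45s shares (3.10 and 1.65%) and the highest levels of Il6st, Lifr and Osmr. Il6ra did not follow this order, as it was highest in replicate 4, with the group's highest share (12.4%). In saline lungs replicate 1 had the highest share (2.88%) and also the highest Il6st and Lifr levels (669 and 500 CPM).

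Per exon length the order of the receptors' means was the same in each group. Il6st (34.4 ± 4.51 CPM per kb in anti-IL-4Ra lungs, 34.8 ± 6.23 in OVA lungs and 52.6 ± 8.42 in saline lungs; SD, n = 5 each) stood above Lifr (24.3 ± 5.59, 24.2 ± 3.17 and 41.9 ± 3.39 CPM per kb in the same groups), without overlap in OVA lungs and with overlap in the other groups. Next came Osmr (7.84 ± 2.28, 6.80 ± 1.18 and 8.61 ± 1.15 CPM per kb) and Il6ra (6.08 ± 0.492, 5.43 ± 0.655 and 7.13 ± 0.508 CPM per kb), whose ranges overlapped with each other in each group. Il31ra stood far below, at 0.0813 ± 0.0208 in anti-IL-4Ra lungs, 0.615 ± 0.202 in OVA lungs and 0.0864 ± 0.0461 CPM per kb in saline lungs. Of the cytokines, Osm and Lif overlapped in the anti-IL-4Ra and OVA groups, whereas in saline lungs Lif (1.30 to 1.74 CPM per kb) lay above Osm (0.323 to 1.00 CPM per kb) without overlap. Within libraries, Lifr was 70.2 ± 8.46% of Il6st in anti-IL-4Ra lungs, 70.4 ± 9.02% in OVA lungs and 80.8 ± 10.8% in saline lungs, with exact permutation p, adjusted over the 11 ratio tests made, from 0.26 to 0.98 in the 3 comparisons (n = 5 each).

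**Figure D3:**
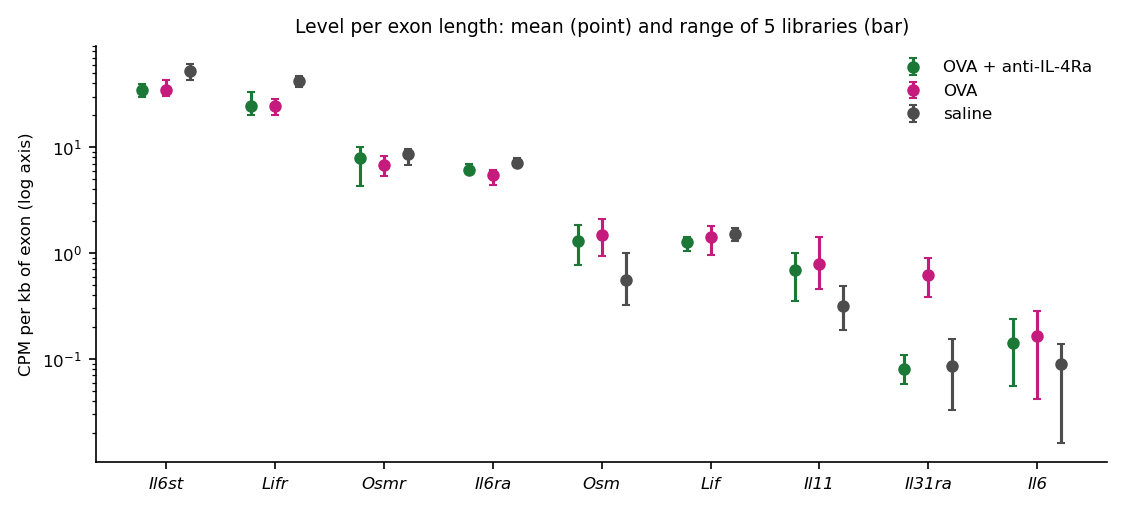
CPM per kb of annotated exon (y axis, log) for the 9 genes, by group; points are means and bars the lowest and highest of 5 libraries. Il6st and Lifr lead in each group, and Il31ra lies at 0.615 CPM per kb in OVA lungs, against 0.0813 in anti-IL-4Ra and 0.0864 in saline lungs.

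Among the cytokines, Osm (oncostatin M, made by neutrophils, macrophages and T cells) was higher in both OVA-exposed groups. It had 2.73, 2.41, 4.19, 3.84 and 1.76 CPM in anti-IL-4Ra libraries and 3.64, 3.97, 2.43, 2.12 and 4.72 CPM in OVA libraries, against 0.941, 0.736, 2.27, 1.63 and 0.733 CPM in saline libraries. The groups overlapped through saline replicate 3. For Osm the log2 fold change was 1.41 ± 0.36 for OVA over saline (edgeR adjusted p = 0.0064), 1.24 ± 0.36 for anti-IL-4Ra over saline (edgeR adjusted p = 0.018) and -0.17 ± 0.35 for anti-IL-4Ra over OVA (edgeR adjusted p = 1.00). The call of anti-IL-4Ra over saline was lost without saline replicate 2 (1.06 ± 0.37, edgeR adjusted p = 0.050172) or anti-IL-4Ra replicate 3 (1.09 ± 0.37, edgeR adjusted p = 0.056).

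Il11, a cytokine of stromal and epithelial cells linked to fibrosis, was rare, with 9 to 30 counts per library. It had 1.65, 2.07, 1.33, 1.41 and 0.738 CPM in anti-IL-4Ra libraries and 1.59, 1.32, 1.28, 0.957 and 2.97 CPM in OVA libraries, against 0.527, 0.388, 1.01, 0.817 and 0.550 CPM in saline libraries. The groups overlapped at their edges. Fitted log2 fold changes were 1.29 ± 0.36 for OVA over saline (edgeR adjusted p = 0.012), 1.13 ± 0.36 for anti-IL-4Ra over saline (edgeR adjusted p = 0.031) and -0.16 ± 0.35 for anti-IL-4Ra over OVA (edgeR adjusted p = 1.00). The anti-IL-4Ra call was lost in 6 of the 15 fits without a library: without saline replicate 1, 2 or 5 or anti-IL-4Ra replicate 1, 2 or 3 (0.92 to 1.15, edgeR adjusted p 0.055 to 0.083). Counts of Il11 were not whole in any library, so reads were shared with other features.

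The mean Rn45s share, like the mean levels of both these cytokine genes, was higher in both OVA-exposed groups than in saline lungs. OVA replicate 5, with the highest share of all libraries (12.4%), also had the highest Osm and Il11 levels. In OVA libraries the order of Osm levels was that of the shares, from replicate 4 (4.31%, 2.12 CPM) to replicate 5. In anti-IL-4Ra libraries the lowest shares, 1.65% in replicate 5 and 3.10% in replicate 2, went with the lowest Osm levels (1.76 and 2.41 CPM). In saline libraries the highest share (2.88%, replicate 1) went with 0.941 CPM of Osm, below replicates 3 and 4. In the anti-IL-4Ra and saline groups the library with the highest share had neither the highest Osm nor the highest Il11 level. Il11 was highest among anti-IL-4Ra libraries in replicate 2 (2.07 CPM), with a share of 3.10%. With the share as a covariate the OVA-over-saline change was 0.54 ± 0.43 for Osm (edgeR adjusted p = 0.45) and 0.68 ± 0.50 for Il11 (edgeR adjusted p = 0.41). For anti-IL-4Ra over saline it was 0.44 ± 0.40 for Osm (edgeR adjusted p = 0.56) and 0.61 ± 0.46 for Il11 (edgeR adjusted p = 0.47). T cell markers rose in 7 of 8 genes tested in each OVA-exposed group against saline. Of all genes 13.9% were higher in anti-IL-4Ra than in saline lungs and 19.3% in OVA than in saline lungs. The summed level of the T cell markers was 135 to 274 CPM in anti-IL-4Ra lungs and 112 to 372 CPM in OVA lungs, against 54.2 to 95.4 CPM in saline lungs. A single T cell marker, Icos, was called higher in each with the Rn45s share as a covariate. Of all genes, that fit called 4.73% for OVA and 2.35% for anti-IL-4Ra, each against saline. Of 10 neutrophil markers, 1 was higher and 5 lower in OVA than in saline lungs, where 17.8% of all genes were lower, and 1 was higher in anti-IL-4Ra than in saline lungs. The summed neutrophil level was 311 to 605 CPM in anti-IL-4Ra lungs, 318 to 502 CPM in OVA lungs and 234 to 382 CPM in saline lungs, and no marker of either list was at 0 in all libraries. Ltf had the highest mean of the 10 neutrophil markers in OVA-exposed lungs, with 204 CPM in anti-IL-4Ra, 155 in OVA and 69.1 in saline lungs. S100a9 took another course, with 42.0, 21.2 and 71.1 CPM in the same groups, so the sum does not stand for all markers. The part of these cells in the Osm level was not tested.

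Lif, a cytokine that maintains stem cells and marks tissue stress, did not pass the threshold in any comparison. It had 6.11, 4.89, 6.12, 4.58 and 5.85 CPM in anti-IL-4Ra libraries, 4.17, 4.80, 6.42, 7.73 and 7.90 CPM in OVA libraries and 6.89, 5.77, 5.65, 7.57 and 6.78 CPM in saline libraries. All groups overlapped, with the widest spread in OVA lungs. Fitted log2 fold changes were -0.17 ± 0.19 for anti-IL-4Ra over OVA (edgeR adjusted p = 1.00), -0.08 ± 0.19 for OVA over saline (0.78) and -0.24 ± 0.19 for anti-IL-4Ra over saline (0.35). Osm, its chromosomal neighbour, was called in both comparisons with saline.

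Il6, the founding cytokine of the family, was near the limit of detection. It had 7, 3, 6, 2 and 7 counts in anti-IL-4Ra libraries, 4, 7, 5, 10 and 1 counts in OVA libraries and 9, 1, 5, 3 and 5 counts in saline libraries. It did not pass the filter, so it was set apart from the fit. The mean was 0.343 ± 0.176 CPM in anti-IL-4Ra lungs, 0.401 ± 0.231 CPM in OVA lungs and 0.220 ± 0.121 CPM in saline lungs (SD, n = 5 each), where 3 counts in a library correspond to 0.113 to 0.308 CPM. Exact two-sided permutation tests (n = 5 each) gave p = 0.64 for anti-IL-4Ra against OVA, 0.18 for OVA against saline and 0.24 for anti-IL-4Ra against saline, or 0.64, 0.30 and 0.30 after adjustment over the 5 exact tests. A difference was not detectable at this depth.

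Of the 7 members other than Il31ra that were tested, 0 were called between anti-IL-4Ra and OVA lungs by edgeR or by DESeq2, and 0 had an unadjusted edgeR p under 0.05, as against 0.302% of all genes called. Their log2 fold changes lay between -0.17 and 0.20, with SE from 0.10 to 0.35, and their median was -0.01, against -0.0021 over all genes. Against saline, 4 of these 7 members were called in anti-IL-4Ra lungs, Osm and Il11 higher and Il6st and Lifr lower, where 26.6% of all genes were called, 13.9% higher and 12.7% lower.

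The genes whose levels over the 15 libraries were nearest to those of Il31ra were found among all genes tested, by the root mean square difference of z-scored log2 CPM, which is 0 for identical profiles. They were Arg1, arginase 1 of alternatively activated macrophages (0.361), Ddx4, a germ-cell RNA helicase (0.373), Ccl24, the eosinophil attractant eotaxin-2 (0.404), Oit3 (0.423), Tmem26 (0.445), Tdo2, tryptophan dioxygenase (0.451), and Ocstamp and Dcstamp (0.456 and 0.461), membrane proteins needed for the fusion of osteoclasts and macrophages. Arg1 averaged 7.62 CPM in anti-IL-4Ra lungs and 152 CPM in OVA lungs, against 2.34 CPM in saline lungs. Ocstamp averaged 0.513 CPM in anti-IL-4Ra lungs and 4.88 CPM in OVA lungs, against 0.127 CPM in saline lungs. These genes were picked for their likeness, so their levels are a description with no test. The plot of Il31ra with these genes gives their levels in each library.

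**Figure D4:**
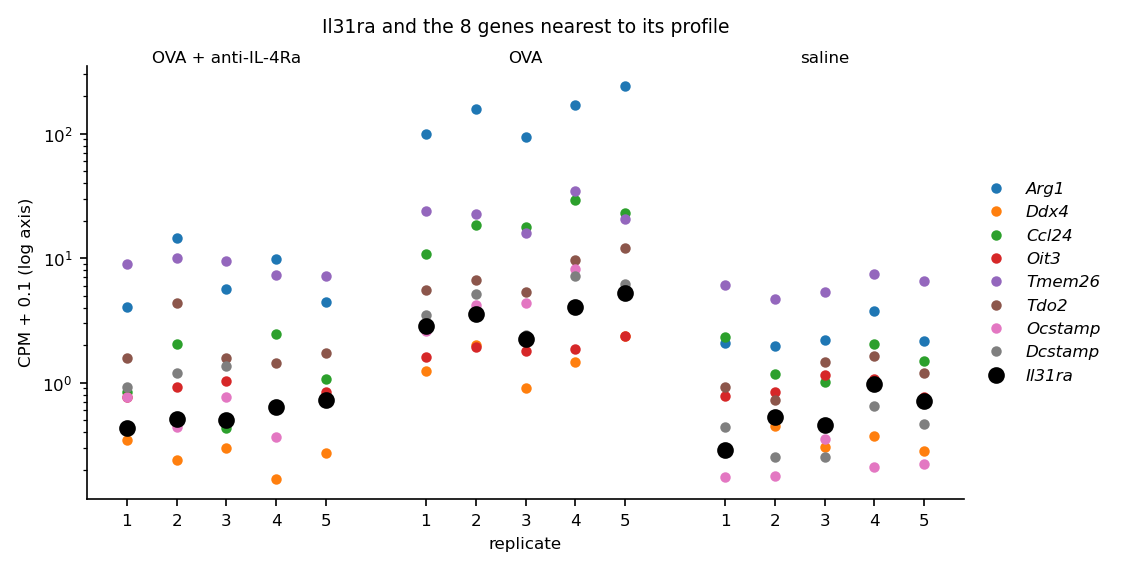
CPM + 0.1 (y axis, log) of Il31ra (large black points) and the 8 genes nearest to its profile in each of the 15 libraries (x axis, replicate within group). The 9 genes are higher in OVA than in the anti-IL-4Ra and saline libraries, and Il31ra itself lies at 2.16 to 5.13 CPM in OVA lungs.

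Other members had other nearest genes. For Lifr they were Ehd4 (0.172), Myct1 (0.179) and Clec14a (0.189), the last 2 known from endothelium, and for Il6st Rab5b (0.234), Ggcx (0.244) and Anxa5 (0.246). For Osm they were Helb (0.219), Cep152 (0.228) and Nlrc3 (0.232), for Il11 Mdga2 (0.243), Foxd2os (0.247) and A330032B11Rik (0.273), and for Osmr Snx13 (0.244), Lamp3 (0.296) and BC003331 (0.321). Il6ra was nearest to Gas2l1 (0.348), Ephb6 (0.362) and Llgl1 (0.366). Lif stood most alone, with Hdhd3 at 0.536, Kdm5b at 0.636 and Ssx2ip at 0.677.

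Of 10 markers of alternatively activated macrophages, a list that holds 2 of the 8 genes nearest to Il31ra (Arg1 and Ccl24), 10 were higher in OVA than in saline lungs, or 8 with the Rn45s share as a covariate. Of all genes 19.3% were higher in this comparison, and 4.73% were called in either direction with the covariate. Of the same 10 markers, 4 were lower in anti-IL-4Ra than in OVA lungs, where 0.163% of all genes were. With the Rn45s share as a covariate the 4 called lower were Arg1, Ccl24, Mgl2 and Pdcd1lg2. Arg1 and Ccl24 were picked for their likeness to Il31ra, whose fall in this comparison led to its inclusion. The counts of this list are therefore a description with no test. Between anti-IL-4Ra and saline lungs 5 of the 10 markers were higher, where 13.9% of all genes were. Their summed level was 1550 to 9283 CPM in anti-IL-4Ra lungs and 8728 to 15902 CPM in OVA lungs, against 260 to 308 CPM in saline lungs, with none at 0 in all libraries. The sum was carried by Retnla, Chil3 and Chil4, which averaged 4681, 1087 and 359 CPM in anti-IL-4Ra lungs. Ccl24 averaged 1.27 CPM in anti-IL-4Ra lungs and 1.52 CPM in saline lungs, and Mgl2 11.6 CPM in anti-IL-4Ra lungs and 14.4 CPM in saline lungs. Cd163 averaged 14.02 CPM in anti-IL-4Ra lungs and 12.1 CPM in saline lungs; these 6 markers were chosen after their values were seen. Of 8 general markers of monocytes and macrophages, 2 were higher in anti-IL-4Ra than in OVA lungs, where 0.138% of all genes were. In OVA against saline lungs 2 of the 8 were lower, where 17.8% of all genes were. Which cells carried Il31ra was not tested.

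Related receptors and cytokines outside the 9 genes were described in the same comparisons. Of 14 listed relatives of the gp130 family 9 were tested, and 1 was higher and 4 lower between OVA and saline lungs, where 19.3% of all genes were higher and 17.8% lower, with a median log2 fold change of -0.34, against 0.02 over all genes. Il27ra, the IL-27 receptor, rose by 1.39 ± 0.31 (28.4 CPM in OVA lungs and 10.8 CPM in saline lungs, edgeR adjusted p = 0.0029). The lower genes were Ctf1, cardiotrophin 1 (-0.92 ± 0.28, edgeR adjusted p = 0.016), Cntfr, the ciliary neurotrophic factor receptor (-0.89 ± 0.31, edgeR adjusted p = 0.035), Lepr, the leptin receptor (-0.70 ± 0.19, edgeR adjusted p = 0.011), and Csf3r, the receptor of G-CSF (-0.63 ± 0.20, edgeR adjusted p = 0.024). Between anti-IL-4Ra and saline lungs Il27ra was higher (1.21 ± 0.31, edgeR adjusted p = 0.010), the only one of the 9 called by edgeR, where 26.6% of all genes were called. With the Rn45s share as a covariate 0 of the 9 were called by edgeR in either comparison with saline. At an unadjusted edgeR p under 0.05 there were 2 for OVA and 1 for anti-IL-4Ra. Of all genes, that fit called 4.73% for OVA and 2.35% for anti-IL-4Ra. Its OVA-over-saline change was 0.43 ± 0.33 for Il27ra and -0.10 ± 0.18 for Lepr. Of the 9, 0 were called between anti-IL-4Ra and OVA lungs by edgeR or by DESeq2, and 1 had an unadjusted edgeR p under 0.05.

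Of 15 genes for kinases, STAT factors and feedback downstream of these receptors, 4 were higher and 2 lower in OVA than in saline lungs, a share near the 37.1% of all genes called. With the Rn45s share as a covariate 0 of the 15 were called by edgeR between OVA and saline or between anti-IL-4Ra and saline lungs. At an unadjusted edgeR p under 0.05 there were 8 and 6 in these comparisons. Of all genes, that fit called 4.73% and 2.35%. Socs1, a JAK inhibitor, rose by 1.54 ± 0.27 (edgeR adjusted p = 0.00071), Cish, another feedback inhibitor, by 1.00 ± 0.21 (edgeR adjusted p = 0.0019), the adaptor gene Grb2 by 0.51 ± 0.16 (edgeR adjusted p = 0.020) and the kinase gene Jak2 by 0.45 ± 0.13 (edgeR adjusted p = 0.013). Ptpn11, the phosphatase SHP2, fell by 0.50 ± 0.10 (edgeR adjusted p = 0.0019). Stat3, the main STAT of gp130, had 188 ± 11.5 CPM in anti-IL-4Ra lungs, 170 ± 19.8 CPM in OVA lungs and 210 ± 13.1 CPM in saline lungs (SD, n = 5 each), and its fall between OVA and saline passed the threshold (-0.30 ± 0.10, edgeR adjusted p = 0.024).

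Socs3, the feedback inhibitor that binds gp130, had 52.2 ± 3.405 CPM in anti-IL-4Ra lungs, 41.2 ± 6.92 CPM in OVA lungs and 36.8 ± 2.39 CPM in saline lungs. It was higher in anti-IL-4Ra than in saline lungs (0.51 ± 0.11, edgeR adjusted p = 0.0043), with no overlap of libraries, which was so in this direction for 9.53% of all genes tested. In the fit with the Rn45s share this change was 0.32 ± 0.13 (edgeR adjusted p = 0.20). Neither OVA over saline (0.16 ± 0.11, edgeR adjusted p = 0.25) nor anti-IL-4Ra over OVA (0.34 ± 0.11, edgeR adjusted p = 0.45) passed the threshold. In all, 4 of the 15 downstream genes were higher and 1 lower in anti-IL-4Ra than in saline lungs, where 26.6% of all genes were called, the other higher genes being Socs1 (1.06 ± 0.27, edgeR adjusted p = 0.011), Tyk2, a kinase gene (0.56 ± 0.18, edgeR adjusted p = 0.030), and Jak2 (0.42 ± 0.13, edgeR adjusted p = 0.026), and the lower one Ptpn11 (-0.44 ± 0.10, edgeR adjusted p = 0.0066). Between anti-IL-4Ra and OVA lungs 0 were called by edgeR or by DESeq2, and 3 had an unadjusted edgeR p under 0.05.

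Of 22 listed targets of STAT3 and acute phase genes, 18 were tested. In OVA over saline 6 were higher and 1 lower (median log2 fold change 0.29), and in anti-IL-4Ra over saline 9 were higher and 1 lower (median 0.50), where 37.1% and 26.6% of all genes were called in these 2 comparisons. The fit with the Rn45s share called 5 higher and 1 lower in OVA over saline, and 5 higher in anti-IL-4Ra over saline. Of all genes, that fit called 4.73% and 2.35% in these 2 comparisons. Timp1, Serpina3n, Saa3, Saa1 and Lcn2 were the higher genes of both comparisons in that fit. Saa1 and Lcn2 were not called in OVA over saline by DESeq2, which was run without the covariate. Saa1 had 30 counts over the OVA group and 11 over the saline group. Timp1, a protease inhibitor, rose by 2.39 ± 0.30 in OVA lungs (edgeR adjusted p = 6e-05) and Serpina3n, a serine protease inhibitor, by 2.34 ± 0.30 (edgeR adjusted p = 6.5e-05). Saa3, a serum amyloid gene of macrophages and epithelium, had 114 ± 55.1 CPM in anti-IL-4Ra lungs, 43.1 ± 7.35 CPM in OVA lungs and 14.2 ± 11.2 CPM in saline lungs, a log2 fold change of 3.00 ± 0.44 for anti-IL-4Ra over saline (edgeR adjusted p = 0.00034) and 1.60 ± 0.43 for OVA over saline (edgeR adjusted p = 0.0085). Myc rose by 1.48 ± 0.26 in OVA lungs (edgeR adjusted p = 0.00073), and by the fit with the Rn45s share the change was 0.77 ± 0.29 (edgeR adjusted p = 0.12). Hp, haptoglobin, fell in both groups, by a log2 fold change of -1.70 ± 0.22 for OVA over saline (edgeR adjusted p = 6.5e-05) and -0.79 ± 0.21 for anti-IL-4Ra over saline (edgeR adjusted p = 0.014), the second of which was -0.46 ± 0.27 with the Rn45s share (edgeR adjusted p = 0.36). Saa1 (3.35 ± 0.81, edgeR adjusted p = 0.0077) was also higher in anti-IL-4Ra than in saline lungs. It rested on 86 counts over the anti-IL-4Ra group and 11 over the saline group. The anti-IL-4Ra libraries held 4, 40, 1, 11 and 30 counts, most of them in replicates 2 and 5. Replicate 3 (0.0666 CPM) lay within the saline range (0.0388 to 0.218 CPM). Timp1 (1.88 ± 0.29, edgeR adjusted p = 0.00050) and Serpina3n (1.85 ± 0.29, edgeR adjusted p = 0.00054) were also higher in anti-IL-4Ra than in saline lungs. Between anti-IL-4Ra and OVA lungs 0 of the 18 were called by edgeR and 1, Hp, by DESeq2, and 4 had an unadjusted edgeR p under 0.05.

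**Figure D5:**
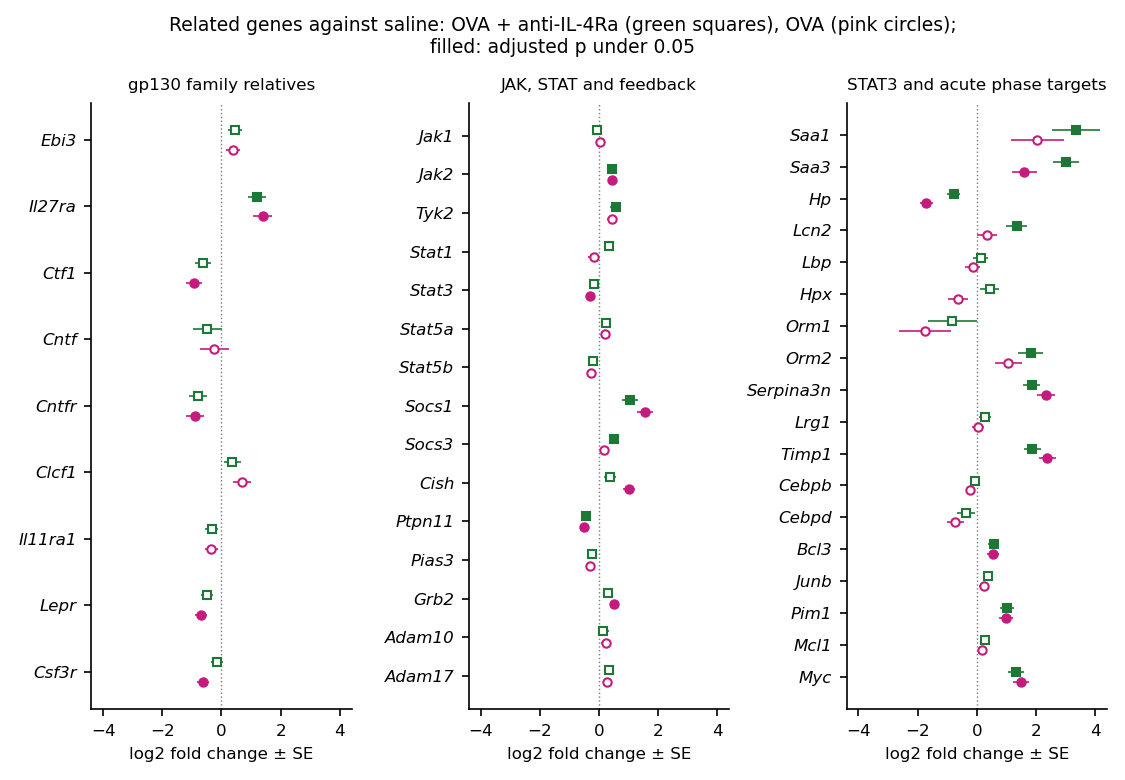
Log2 fold change ± SE against saline (x axis) of the tested genes of 3 lists (y axis), for OVA with anti-IL-4Ra (green squares) and OVA (pink circles); filled symbols have an edgeR adjusted p under 0.05. Of the genes shown, Saa3 lies at 3.00 with anti-IL-4Ra and 1.60 with OVA, and Hp at -0.79 and -1.70.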

How the data were processed

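RNA was sequenced from 15 whole lungs, 1 library per mouse, 5 per group. The authors deposited expected counts per gene symbol, not normalized. Per the submitters' processing notes, RSEM 1.2.15 and Bowtie2 2.1.0 were used; RSEM divides reads that match several genes by an estimate. The build they list is hg38, a human one, whereas 22542 of the 24054 symbols are current mouse symbols and 1372 are mouse synonyms, so the values were read as mouse genes. No source used here names the annotation behind the counts.

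Expected counts were rounded. Genes were kept by edgeR's filterByExpr (15905 of 24054), scaled by TMM and fitted together for all 15 libraries with edgeR 4.0.16's quasi-likelihood test in R 4.3.3, two-sided, with Benjamini-Hochberg adjustment over all genes tested and a threshold of 0.05. SE came from the F statistic. The steps were tested on simulated counts. Single genes below the filter and ratios of genes were tested by exact permutation of libraries. The labels call the replicates biological, and the spread between mice is what p-values measure. Replicates of a group differed by far more than sampling noise (chi-square over its degrees of freedom at least 10.0), so each counted once. Floors of 3 counts cover the counting error of 0 counts only.

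Alternatives were RLE factors, no filter, DESeq2 1.42.0, fits of 2 groups only, the replicate number as a block, the Rn45s share as a covariate, and each library left out. The covariate was run on the listed genes after the data had been seen. All 9 members are named. Of each list of related genes, Il31, Socs3 and Stat3 and up to 4 called genes per direction with the largest change were to be named, and the 8 genes nearest to Il31ra and the 3 nearest to each other member by profile. A gene first listed among the relatives of the family is not reported here. The members and lists were chosen with earlier results of these data known. The labels name no batch or sequencing date. Promoters are from RefSeq, exon lengths from GENCODE vM21.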

Additional observations from a re-analysis of the deposited data

Results flagged for a closer look

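Among 30 groups of 5 libraries examined (9 members and Il31 in 3 groups), 1 library stood apart from its group by Dixon's test at the 95% level, which chance gives in about 1 in 20 groups. Il6ra was at 60.1 CPM in anti-IL-4Ra replicate 4, against 50.2 to 51.1 CPM in the other 4 anti-IL-4Ra libraries. The same library had the lowest Osmr level of all 15 (52.3 CPM) and an Rn45s share of 12.4%.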

How the results depend on the processing

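Between OVA and saline, leaving Il31ra aside, 2 members were called higher and 3 lower as fitted. With the Rn45s share as a covariate 0 were called, where all genes called came to 752 in place of 5898. A count that also held Il31ra did not change with RLE factors, without the filter, with DESeq2, with 2 groups in the fit or with the replicate block. Between anti-IL-4Ra and saline the count of members called was 4, or 3 with the block. It was 0 with the Rn45s share (all genes 373 in place of 4236) and 2 to 5 over the fits without 1 library. Between anti-IL-4Ra and OVA, with Il31ra not counted, it was 0 under each alternative, while all genes called came to 134 with DESeq2 and 26 with the replicate block in place of 48. The same replicate numbers do not pair libraries (correlation of deviations over 0.1 in 2 of 15 pairs, -0.55 to 0.35; 2 of 15 libraries were nearest to one of their own number). The block ended 1 member's call, that of Il11 between anti-IL-4Ra and saline (1.14, edgeR adjusted p = 0.082).

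The sign of some values turned. Between anti-IL-4Ra and OVA, Lifr was -0.0059 with the replicate block and -0.052 with the Rn45s share, against 0.01 as reported, and without 1 library Lifr ran from -0.13 to 0.089, Il6st from -0.071 to 0.085 and Il11 from -0.32 to 0.15. Between OVA and saline, Lif ran from -0.21 to 0.038 without 1 library, and Osmr was 0.16 with the Rn45s share, against -0.34 as reported. Between anti-IL-4Ra and saline, Il31ra ran from -0.26 to 0.27 without 1 library and was 0.052 with the Rn45s share, and Osmr was 0.29 with it, against -0.13 as reported. The cause was not tested. With 2 groups in the fit, Il31ra did not pass the filter between anti-IL-4Ra and saline. Depth limits Il31ra, Il6, Il11 and Il31, which rested on 0 to 58 counts per library.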
